A study of Mus musculus with 24 samples.

Results

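The genes of the cytosolic ribosome were followed through 4 treatment groups of mouse melanoma tumours. The members were the rows of the count table whose mouse symbol is that of a protein of the small 40S subunit (Rps genes and Rpsa) or of the large 60S subunit (Rpl genes and Rplp0, Rplp1 and Rplp2), with pseudogene names left out. The rule matched 76 of 55414 rows, 30 of the small subunit and 46 of the large one, and all 76 passed the filter on low counts and were tested among 16029 genes. The rule works on names, so genes of ribosomal proteins under other names, such as Rps3a1 and Fau, are no members and are given at the end.

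The tumours were D4M tumours, from a mouse melanoma cell line, taken from wild-type C57BL/6 mice treated by intraperitoneal injection, and the series asks what brequinar and anti-PD-1 together do in the tumour environment. There were 24 tumours, 6 in each group and 1 library from each. IgG2a mice received the control antibody, PD-1 mice anti-PD-1, which blocks a checkpoint receptor on T cells, BRQ+IgG2a mice brequinar with the control antibody, and BRQ+PD-1 mice brequinar with anti-PD-1. Brequinar blocks dihydroorotate dehydrogenase (DHODH), an enzyme of de novo pyrimidine synthesis in mitochondria. All 4 groups carried the same line and received an antibody, so no group was untreated.

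Each cytosolic ribosome holds 1 copy of nearly every one of these proteins, bound to ribosomal RNA, and cells make the proteins in matched amounts. Their mRNAs are among the most abundant of a growing cell. Most begin at their 5′ end with a C followed by a run of pyrimidines, the 5′ terminal oligopyrimidine (TOP) tract, through which the kinase complex mTORC1 controls their translation. Ribosome assembly also needs ribosomal RNA, which is built from nucleotides that include the pyrimidines, and free ribosomal proteins such as Rpl5 and Rpl11 bind the p53 regulator Mdm2 when assembly fails.

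To look for such a tract, the bases around the start site are printed for some members. These are members that the results turn on and that have an entry in the RefSeq promoter table (build GRCm38.p6). Each window runs 5′ to 3′ on the gene's own strand, 15 bases before the annotated start and 15 from it, and capitals mark a C followed by at least 4 further pyrimidines (C or T) on that strand, beginning within 10 bases of the start. Rpl35 lies at chr2:39005117-39005146 (minus strand), Rps6 at chr4:86857353-86857382 (minus), Rps23 at chr13:90923107-90923136 (plus), Rpl10a at chr17:28328456-28328485 (plus; its other annotated start, at chr17:28328550-28328579, has no tract) and Rpl38 at chr11:114668565-114668594 (plus).
Rpl35: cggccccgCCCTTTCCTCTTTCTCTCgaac
Rps6: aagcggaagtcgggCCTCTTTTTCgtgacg
Rps23: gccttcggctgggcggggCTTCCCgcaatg
Rpl10a: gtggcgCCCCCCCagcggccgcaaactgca
Rpl38: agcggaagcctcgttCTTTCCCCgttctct

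No such tract stood within these limits in the windows of Rps28 at chr17:33824548-33824577 (minus), Rpl41 at chr10:128549154-128549183 (minus) and Rplp0 at chr5:115559452-115559481 (plus), which are printed for contrast.
Rps28: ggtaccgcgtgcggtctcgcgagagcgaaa
Rpl41: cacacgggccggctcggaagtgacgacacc
Rplp0: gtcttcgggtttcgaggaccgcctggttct

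Of the 56 members with an entry, 34 (60.7%) held a tract at an annotated start, against 34.3% of 26969 other genes searched in the same way. A match is a run of letters and depends on where the annotation puts the start, so a window without one says nothing of the mRNA made in these tumours. A marked run need not begin the mRNA either. That of Rpl10a ends before the annotated start, and that of Rps23 begins after it.

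Library totals ran from 19106205 to 34282319 counts, and mitochondrial transcripts took 1.1 to 2.1% of counts. Skeletal muscle RNA set 4 libraries apart, with Acta1, the actin of skeletal muscle, above 1000 CPM (counts scaled to a common library size with TMM factors) in IgG2a replicates 2 and 3, PD-1 replicate 6 and BRQ+IgG2a replicate 4. The pigment genes Dct and Tyr, which define melanocytes, were at 0 in all 24 libraries, while Mitf, the transcription factor of that lineage, was at 11.6 to 48.2 CPM. Each library holds tumour and host cells together, so fewer cells of a type and less RNA per cell cannot be told apart.

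The members were abundant, apart from 3 low ones, and the other 73 spanned 188 to 2079 CPM per kilobase of transcript. Per kilobase of transcript, the median over the 76 members was 762 CPM, and the highest were Rplp1 at 2079, Rplp0 at 1417 and Rps12 at 1376 CPM per kilobase. Rplp0 and Rplp1 belong to the P stalk, where elongation factors bind. The 3 lowest were Rpl13a at 35.5, Rps10 at 6.875 and Rpl24 at 1.624 CPM per kilobase.

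Those 3 low levels belong to genes that share exons with a read-through or neighbouring gene in the annotation. Annotated exons of other genes overlap 47% of the exonic bases of Rpl24, 28.7% of those of Rps10 and 35.4% of those of Rpl13a. Their mean counts per library were 28.1 for Rpl24, 87.3 for Rps10 and 954 for Rpl13a, and their single values are uncertain because the authors' counting may leave out or split shared reads. An overlap does not go with a low count in every case, since 66.2% of the exonic bases of Rpl35 and 62.3% of those of Rpl23a are also shared.

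The mean share of all counts taken by the 76 members together was lower in the groups given brequinar, and 2 tumours given both agents had the lowest shares of all. In IgG2a the lowest, median and highest shares were 4.41, 4.96 and 5.26%, with a mean of 4.89 ± 0.355% (SD, n = 6). In PD-1 they were 4.354, 4.949 and 5.196%, with a mean of 4.87 ± 0.321% (SD, n = 6). These groups lay over each other almost completely.

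In BRQ+IgG2a the shares were 3.92, 4.56 and 4.69%, with a mean of 4.47 ± 0.277% (SD, n = 6). The lowest of them was replicate 4, a muscle-rich library, and without it the mean was 4.58 ± 0.0666% (SD, n = 5). In BRQ+PD-1 the shares were 2.91, 4.40 and 4.98%, with a mean of 4.03 ± 0.897% (SD, n = 6). Replicates 1 and 2 of BRQ+PD-1, at 2.91 and 2.92%, lay below every other tumour of the study. Without them the mean was 4.59 ± 0.311% (SD, n = 4), close to that of BRQ+IgG2a. They were set aside for their low shares, and in this group only, which by itself raises the mean and narrows the SD. Later values without these 2 libraries carry the same limit. All 4 groups overlapped, with or without those 2 libraries.

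**Figure D1:**
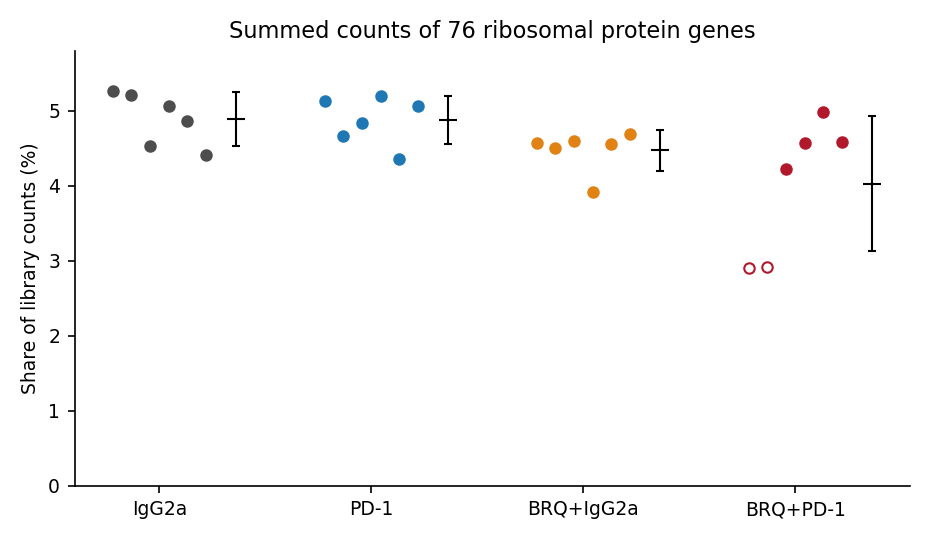
Share of each library's counts taken by the 76 ribosomal protein genes, in percent (y axis), for the 6 tumours of each group (x axis). Points are tumours, bars are the mean with its SD, and open circles mark replicates 1 and 2 of BRQ+PD-1, which at 2.91 and 2.92% sit below all the others.

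These 2 libraries carried the lowest value for most single members. BRQ+PD-1 replicate 2 was the lowest of the 24 tumours for 57 members and replicate 1 for 17. The highest value fell to IgG2a replicate 2 for 22 members, to IgG2a replicate 4 for 15 and to PD-1 replicate 4 for 14. Between them, these 2 libraries held the lowest value of nearly every member.

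In both low libraries the shortest members were also the lowest. Among the 9 members with a coding sequence of at most 300 bases, the median deviation of log2 CPM from the mean of all 24 tumours was -0.68 in replicate 1 and -1.002 in replicate 2. Among the 13 members with more than 700 coding bases it was -0.38 and -0.40. The short mRNAs of the ribosome were thus lower than the long ones in each of these tumours. This order was not particular to them. In BRQ+PD-1 replicates 3, 4 and 6 the shortest members were at -0.24, -0.39 and -0.20. Those with more than 700 coding bases were at -0.09, -0.06 and 0.11 there. Replicate 5 had the opposite order, at 0.28 and 0.02.

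Other protein-coding genes also followed a length trend in the same 2 libraries. The 376 tested ones with transcripts of at most 700 bases had medians of -0.30 in replicate 1 and -0.47 in replicate 2. The 3887 with transcripts over 4000 bases had medians of 0.16 and 0.24. IgG2a replicate 2 leaned the other way, with 0.36 for the short other genes and 0.53 for the shortest members.

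At a like transcript length, the members were lower than other genes in both libraries. For transcripts of at most 700 bases, the 38 members had medians of -0.64 and -0.72 against the -0.30 and -0.47 of the other genes. For transcripts over 1000 and up to 1500 bases, the 11 members had -0.52 and -0.52 against -0.18 and -0.24 for 1471 other genes. RNA integrity values of single samples were not used here, and the part of RNA quality or of library preparation in these 2 libraries was not tested. The main counts and called members below are therefore also given without them.

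**Figure D2:**
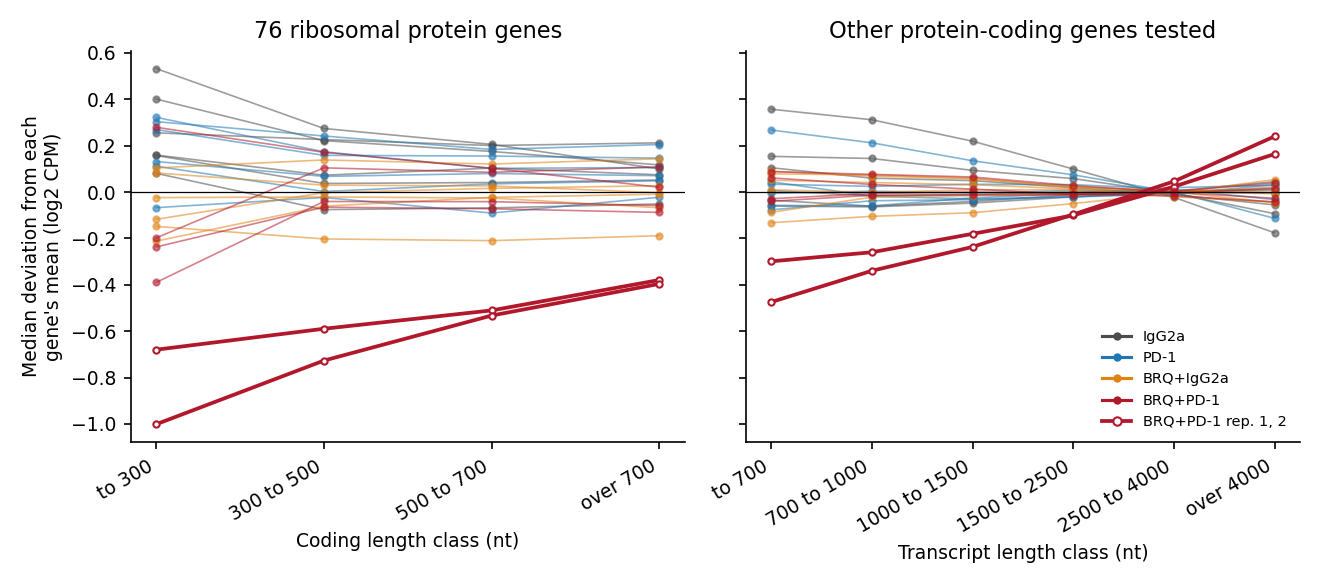
Median deviation of log2 CPM from the mean over all tumours (y axis) by length class in bases (x axis), 1 line per tumour, for the members by coding length (left) and for other protein-coding genes by transcript length (right). The thick lines with open symbols are BRQ+PD-1 replicates 1 and 2, which fall to -0.68 and -1.002 in the shortest members.

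In tumours given brequinar and anti-PD-1, 9 of the 76 members were lower than in tumours given the control antibody at an adjusted p under 0.05, and all 76 fitted values were below 0. The 9 genes were Rps6, Rps23, Rps28 and Rps29 of the small subunit and Rpl10a, Rpl35, Rpl39, Rpl41 and Rplp0 of the large one. That is 11.8% of the members, against 1.43% of all genes tested that were called lower in this comparison. The median log2 fold change of the members was -0.27 (range -0.89 to -0.01), and that of all genes tested was 0.01.

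Rps6, the small-subunit protein that S6 kinases phosphorylate downstream of mTORC1, had the lowest adjusted p among members. Its lowest, median and highest levels were 647, 711 and 756 CPM in IgG2a and 673, 727 and 778 CPM in PD-1. They were 622, 645 and 720 CPM in BRQ+IgG2a and 478, 524 and 616 CPM in BRQ+PD-1. Every BRQ+PD-1 tumour lay below every tumour of the other 3 groups, which overlapped one another. The log2 fold change of Rps6 in BRQ+PD-1 against IgG2a was -0.39 ± 0.07 (SE, adjusted p = 0.00299), and without the 2 low libraries it was -0.33 (adjusted p = 0.0159). Rows named as its pseudogenes held 2.45% as many counts as Rps6 itself.

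Rpl35, a large-subunit protein at the exit of the nascent peptide tunnel, was also lower beyond the spread between tumours. Its levels were 274, 315 and 334 CPM in IgG2a, 273, 303 and 317 CPM in PD-1, 243, 267 and 283 CPM in BRQ+IgG2a, and 145, 206 and 264 CPM in BRQ+PD-1. Every BRQ+PD-1 tumour lay below every IgG2a and every PD-1 tumour, and BRQ+IgG2a overlapped both sides. The log2 fold change of Rpl35 against IgG2a was -0.57 ± 0.10 (SE, adjusted p = 0.00335), and without the 2 low libraries it was -0.43 (adjusted p = 0.0116). Rpl35 shares exonic bases with Arpc5l, a subunit gene of an actin-nucleating complex, whose own log2 fold change was -0.32 ± 0.10 (adjusted p = 0.0579), so its value may hold reads of that gene.

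Rps29, a small zinc-binding protein of the 40S head, showed the largest difference of the members. Its levels were 284, 322 and 432 CPM in IgG2a, 220.3, 325 and 379 CPM in PD-1, 205, 239 and 286 CPM in BRQ+IgG2a, and 103, 183 and 300.2 CPM in BRQ+PD-1. The highest BRQ+PD-1 tumour, replicate 5, lay above the lowest IgG2a tumour, and every other BRQ+PD-1 tumour below it. The log2 fold change of Rps29 against IgG2a was -0.89 ± 0.18 (SE, adjusted p = 0.00784), and without the 2 low libraries it was -0.66 (adjusted p = 0.0417).

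Rps28 is another small protein of the 40S subunit. Its levels were 235, 261 and 332 CPM in IgG2a, 217, 271 and 323 CPM in PD-1, 182, 209 and 238 CPM in BRQ+IgG2a, and 91.3, 164 and 268 CPM in BRQ+PD-1. The groups overlapped at the top of BRQ+PD-1, and the log2 fold change against IgG2a was -0.77 ± 0.17 (SE, adjusted p = 0.0162). Without the 2 low libraries it was -0.53 and no longer passed (adjusted p = 0.0686).

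Rpl41, the shortest member with 75 coding bases, showed a smaller difference with its groups overlapping as well. Its levels were 569.9, 664 and 848 CPM in IgG2a, 532, 639.7 and 711 CPM in PD-1, 479, 539 and 596 CPM in BRQ+IgG2a, and 277, 472 and 606 CPM in BRQ+PD-1. The highest BRQ+PD-1 tumour again reached into the IgG2a range. The log2 fold change of Rpl41 against IgG2a was -0.62 ± 0.15 (SE, adjusted p = 0.0189), and without the 2 low libraries it was -0.41 (adjusted p = 0.0713).

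**Figure D3:**
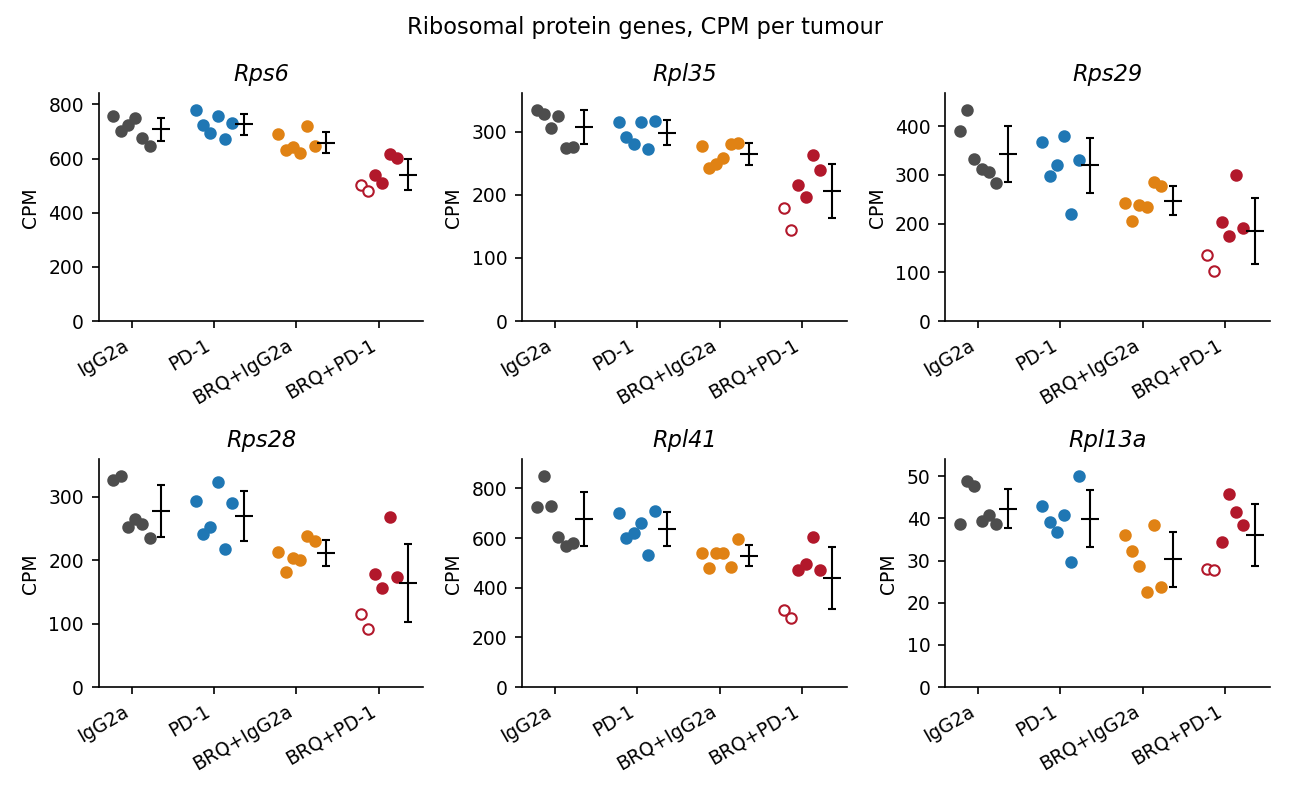
Level in CPM (y axis) of Rps6, Rpl35, Rps29, Rps28, Rpl41 and Rpl13a in each tumour of the 4 groups (x axis). Points are tumours, bars are the mean with its SD, and open circles mark BRQ+PD-1 replicates 1 and 2. For Rps6 every BRQ+PD-1 tumour, up to 616 CPM, lies below every tumour of the other groups.

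The other 4 called members had differences from -0.55 to -0.27. Rps23, which sits at the decoding centre, was at -0.55 ± 0.13 (adjusted p = 0.024). Rpl39, a short protein that lines the peptide tunnel, was at -0.45 ± 0.12 (adjusted p = 0.0306). Rpl10a, the protein of the L1 stalk, was at -0.31 ± 0.09 (adjusted p = 0.048), and Rplp0, the base of the P stalk, at -0.27 ± 0.08 (adjusted p = 0.0495). All 4 missed the threshold without the 2 low libraries, with adjusted p from 0.106 to 0.195.

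Members just outside the threshold were close to those just inside. Rpsa, a 40S protein also known as a laminin receptor precursor, had -0.27 ± 0.08 (adjusted p = 0.0551), and Rpl38, known for a role in the translation of Hox mRNAs, had -0.67 ± 0.20 (adjusted p = 0.0576). The smallest differences belonged to Rpl24 at -0.01, Rpl23a at -0.03 and Rps14 at -0.10, and each of these 3 turned positive without the 2 low libraries.

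Fewer members passed once a pair of libraries or the muscle-rich ones were set aside. Without BRQ+PD-1 replicates 1 and 2, 3 members (Rps6, Rpl35 and Rps29) were called lower, against 0.374% of all genes, and the median of the members moved to -0.09. Without the 4 muscle-rich libraries, the same 3 genes were called, against 0.457% of all genes, and the median stayed at -0.27. Single libraries moved the count as well: it was 5 without IgG2a replicate 1 (against 0.387% of all genes) and 5 without BRQ+PD-1 replicate 1 (0.7%). It was 14 without BRQ+PD-1 replicate 4 (2.19%), 22 without replicate 5 (1.83%) and 14 without replicate 6 (1.12%). Rps6, Rpl35, Rps29, Rps28 and Rpl41 were called in each of the 24 fits that left out 1 library.

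The shortest members had the lowest medians in this comparison, with and without the 2 low libraries. The median log2 fold change was -0.51 for the 9 members of up to 300 coding bases, -0.27 for the 38 of over 300 and up to 500, -0.26 for the 16 of over 500 and up to 700 and -0.23 for the 13 longer ones. Without BRQ+PD-1 replicates 1 and 2 these medians were -0.36, -0.07, -0.09 and -0.07. When each library's trend on transcript length, taken from genes that are no members, was removed, 16 members were called, against 1.52% of all genes, and the median was -0.21. This correction was chosen after seeing the data.

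**Figure D4:**
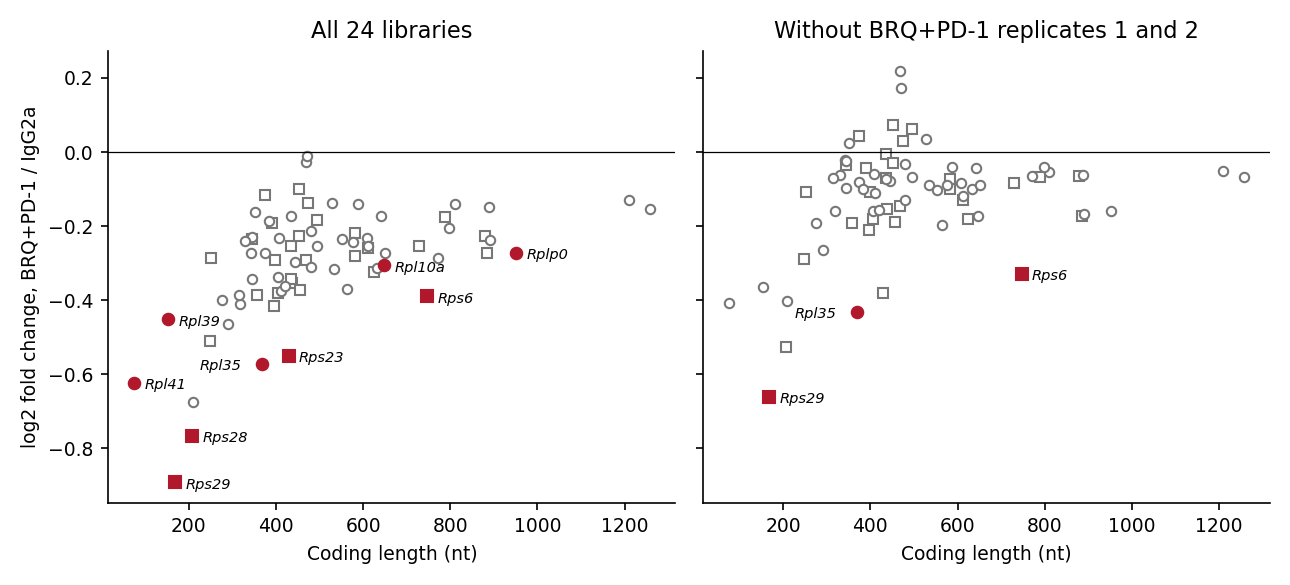
Log2 fold change of the 76 members in BRQ+PD-1 against IgG2a (y axis) by coding length in bases (x axis), with all 24 libraries (left) and without BRQ+PD-1 replicates 1 and 2 (right). Squares are small-subunit and circles large-subunit genes, and filled red symbols were called. The median of the 9 shortest is -0.51 on the left and -0.36 on the right.

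Members with and without a marked run of pyrimidines in the window had like medians in this comparison. The split depends on the annotated start and cannot tell which members' mRNAs carry a TOP tract. The part of that tract was therefore not tested. The median log2 fold change was -0.28 for the 34 members with a tract in the window, -0.26 for the 22 without one and -0.27 for the 20 with no entry used here. Without the 2 low libraries these medians were -0.10, -0.09 and -0.07. Of the windows printed above, Rps6 and Rpl35 carry a tract and Rps28 and Rpl41 do not, and all 4 genes were called.

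Markers of other cells were set beside these groups. The summed level of 10 T cell genes had a lowest, median and highest value of 13.7, 18.7 and 52.6 CPM in IgG2a and 21.9, 54.5 and 101 CPM in BRQ+PD-1, with 21.9 and 59.2 CPM in the 2 low libraries. In this comparison 2 of the 10 (Cd4 and Cd28) were called higher, and the ranges of every list given here overlapped between the groups. For T cell genes called higher, here and below, the share of all genes called higher is not given. Muscle genes (17) summed to 12.6 to 48400 CPM in IgG2a and 3.69 to 843 CPM in BRQ+PD-1. Fibroblast genes summed to 7970 to 10700 and 5090 to 10200 CPM, and macrophage genes to 2290 to 4460 and 2800 to 5500 CPM. Their part in the members' levels was not tested.

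Against PD-1 tumours, BRQ+PD-1 tumours had 10 members lower, 4 of the small subunit and 6 of the large one. This is 13.2% of the members, against 2.66% of all genes called lower, with a median log2 fold change of -0.27 (range -0.79 to 0.31) and 0.01 over all genes. Both comparisons use the same 6 BRQ+PD-1 tumours, so their values stand side by side and are not independent.

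Rps6 was at -0.43 ± 0.07 (SE, adjusted p = 0.00137), Rpl35 at -0.53 ± 0.10 (adjusted p = 0.00567), Rps29 at -0.79 ± 0.18 (adjusted p = 0.0153) and Rps28 at -0.72 ± 0.17 (adjusted p = 0.0188). Rpl41, Rps23, Rpl10a and Rplp0 were called again, at -0.54 ± 0.15, -0.49 ± 0.13, -0.34 ± 0.09 and -0.28 ± 0.08 (adjusted p from 0.0256 to 0.0349). The other two called here were large-subunit proteins, Rpl32 at -0.47 ± 0.12 (adjusted p = 0.0231) and Rpl18 at -0.39 ± 0.11 (adjusted p = 0.044). Rpl32 had 559, 674 and 730.0 CPM in PD-1 as lowest, median and highest and 317, 504 and 578 CPM in BRQ+PD-1, so the groups overlapped at the edge.

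For 4 members (Rpl35, Rps6, Rplp0 and Rpl10a) every BRQ+PD-1 tumour lay below every PD-1 tumour, which held for 1.5% of all genes. In Rplp0 the PD-1 tumours had 1992, 2061 and 2207 CPM and the BRQ+PD-1 tumours 1306, 1775 and 1936 CPM. In Rpl10a they had 558, 588 and 637 CPM against 373, 490.4 and 541 CPM. Against IgG2a the same held for Rpl35 and Rps6, with 0.848% of all genes.

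The largest positive value was that of the low-count Rpl24, 0.31 ± 0.28 (adjusted p = 0.559), followed by Rpl7 and Rps14, both at -0.06. Without the 2 low libraries, Rps6 (-0.37, adjusted p = 0.00689) and Rpl35 (adjusted p = 0.0164) were called, against 1.73% of all genes, and the median of the members was -0.08. Without the muscle-rich libraries the members called were 3 (Rps6, Rpl35 and Rps29), against 1.46%, and with the length trend removed they were 17, against 3.35%. The count was 4 without PD-1 replicate 1, 5 without PD-1 replicate 2, 6 without PD-1 replicate 4 and 5 without PD-1 replicate 6. It was 4, 5 and 5 without BRQ+PD-1 replicates 1, 2 and 3. Over all the fits that left out 1 library, 1.17 to 3.68% of all genes were called lower in this comparison.

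With brequinar and the control antibody, no member passed the threshold against IgG2a, although 75 of 76 fitted values were below 0. edgeR called 0 members, with 4 at an unadjusted p under 0.05 and lower, as were 5.58% of all genes, and it called 0.493% of all genes lower. Without BRQ+PD-1 replicates 1 and 2, which enter the shared estimate of the spread, 32 members were lower at an unadjusted p under 0.05, against 7.46% of all genes, and with the length trend removed 16 were, against 6.44%. DESeq2 called 1 member lower, against 1.17% of all genes, and limma voom 2, against 4.78%. The median log2 fold change of the members was -0.14, and that of all genes was -0.01.

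Rpl13a came closest to the threshold, a large-subunit protein also known for a part in silencing mRNAs under interferon-gamma. Its levels were 38.6, 40.2 and 48.8 CPM in IgG2a and 22.6, 30.5 and 38.4 CPM in BRQ+IgG2a, and the groups did not overlap, which held for 0.518% of all genes. In PD-1 they were 29.8, 40.1 and 50.003 CPM and in BRQ+PD-1 27.8, 36.5 and 45.8 CPM, which overlapped. The log2 fold change of Rpl13a against IgG2a was -0.48 ± 0.14 (SE, adjusted p = 0.0662), and it was called (adjusted p = 0.0412) in the fit without the 2 low BRQ+PD-1 libraries, as was Rpl41. The members called were then 2, against 0.815% of all genes, and also 2 with the length trend removed, against 0.661%. Without the muscle-rich libraries the adjusted p of Rpl13a was 0.351.

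After Rpl13a, the lowest values were those of Rps29 at -0.47 ± 0.18 (adjusted p = 0.182) and Rps28 at -0.40 ± 0.17 (adjusted p = 0.269), and Rpl41 was at -0.35 ± 0.15 (adjusted p = 0.228). This comparison uses the same IgG2a tumours as that of BRQ+PD-1 with IgG2a. Among the values nearest to 0 was that of Rpl3, at 0.00. By length class the medians were -0.30 for the 9 shortest members and -0.16, -0.14 and -0.10 for the longer classes in order. These BRQ+IgG2a tumours had more T cell RNA than IgG2a tumours, with a summed level of 24.4, 84.1 and 174 CPM and 9 of 10 T cell genes called higher, and its part in the members' levels was not tested.

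Anti-PD-1 alone left the members with a median of -0.03, with 50 below and 26 above 0. edgeR called 0 of them, with 0 at an unadjusted p under 0.05, against 2.93% of all genes at such a p and lower, and it called 0% of all genes lower. DESeq2 and limma voom called 0 members as well, and no member was lower in every PD-1 than in every IgG2a tumour, against 0.193% of all genes. The largest differences were those of Rpl24 at -0.32 ± 0.28, Rps21 at -0.17 and Rps27 at -0.17 on the low side and of Rpl32 at 0.13, Rps10 at 0.13 and Rpl23a at 0.10 on the high side. Their adjusted p lay at 0.89 or above.

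Between the 2 brequinar groups, the median of the members in BRQ+PD-1 against BRQ+IgG2a was -0.13, with 73 values below 0. edgeR called 0 members, with 9 at an unadjusted p under 0.05 and lower, as were 3.52% of all genes, and it called 0% of all genes lower. DESeq2 called 1 member lower, against 0.00624% of all genes, and limma voom 1, against 1.09%. The lowest values were Rps29 at -0.42 ± 0.18, Rps28 at -0.37 ± 0.17 and Rpl35 at -0.36 ± 0.10, and the highest were Rpl13a at 0.25 ± 0.14, Rps10 at 0.17 and Rpl24 at 0.02. Rps6 did not overlap between the groups, as for 0.106% of all genes, at -0.28 ± 0.07 (adjusted p = 0.591). Without the 2 low libraries the median of the members was 0.03.

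The interaction contrast asks whether the brequinar difference itself changed with anti-PD-1. edgeR called 0 members, with 2 at an unadjusted p under 0.05 and lower, as were 4.35% of all genes, and it called 0% of all genes lower. DESeq2 and limma voom called 0. The median was -0.13 with all libraries and 0.05 without BRQ+PD-1 replicates 1 and 2. The lowest values were Rps28 at -0.32 ± 0.24, Rps6 at -0.32 ± 0.10 (adjusted p = 0.461) and Rpl35 at -0.32 ± 0.15, and the highest were Rpl24 at 0.34, Rpl13a at 0.33 ± 0.20 and Rpl34 at 0.06. A difference in the brequinar effect between the antibodies was thus not detected for any member at this number of tumours.

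Averaged over both antibodies, brequinar went with lower levels of 21 members, 10 of the small subunit and 11 of the large one. This is 27.6% of the members, against 5.57% of all genes called lower. The median log2 fold change was -0.21 (range -0.63 to 0.14), against 0.01 over all genes. The comparison uses all 24 tumours and shares them with the ones above.

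The 10 with the lowest p were led by Rps6 at -0.27 ± 0.05 (adjusted p = 0.00117), Rpl35 at -0.37 ± 0.07 (adjusted p = 0.00219) and Rps29 at -0.63 ± 0.13 (adjusted p = 0.00273). Rps28, Rpl41 and Rpl32 followed at -0.56 ± 0.12, -0.45 ± 0.10 and -0.35 ± 0.08 (adjusted p from 0.00473 to 0.00925). Rps23, Rpl10a, Rplp0 and Rpl38 stood at -0.38 ± 0.09, -0.24 ± 0.06, -0.21 ± 0.06 and -0.50 ± 0.14 (adjusted p from 0.011 to 0.0223). The other 11 included Rpl37, Rpl18, Rps18, Rpl23, Rpsa, Rpl39, Rps27a, Rpl13a and Rps2 (adjusted p from 0.024 to 0.0477).

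Most of these members were also called without the 2 low libraries. Without them 15 members were called, against 5.35% of all genes, with a median of -0.12. Leaving out 1 library at a time gave 14 to 30 called members, while 4.09 to 7.63% of all genes were called lower in those fits. Without the 4 muscle-rich libraries it gave 7, against 3.62%. With the length trend removed it gave 31, against 6.89%, and the median was -0.18. T cell genes moved with brequinar too, with 8 of 10 called higher in this comparison, and their part in the result was not tested.

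**Figure D5:**
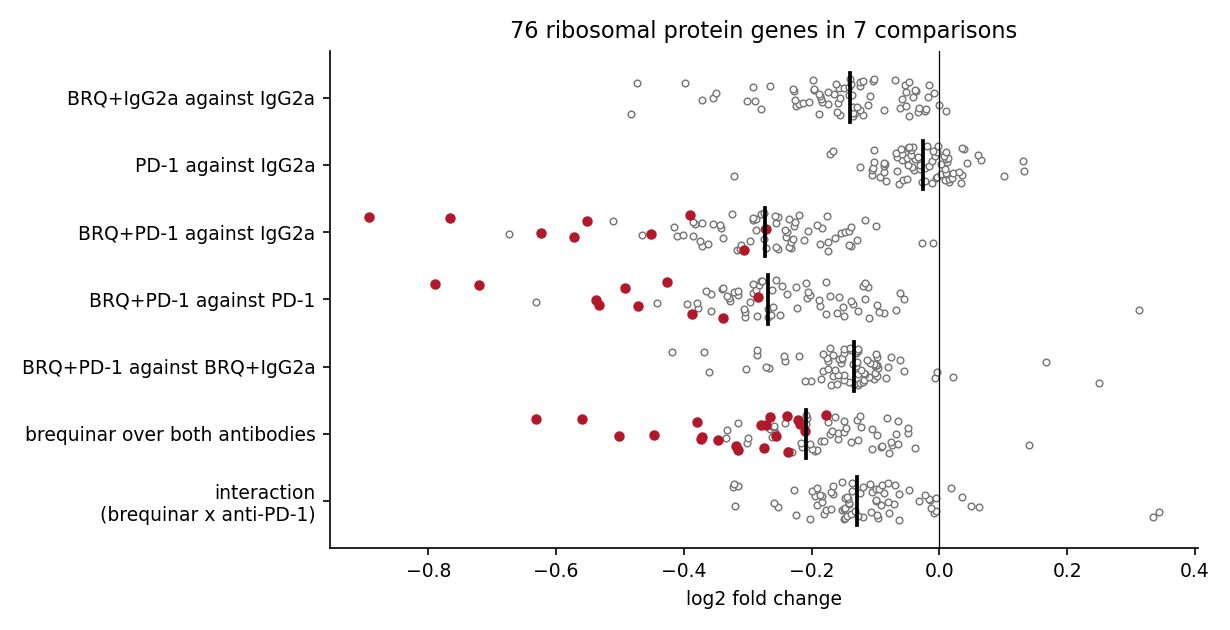
Log2 fold change of the 76 members (x axis) in each of the 7 comparisons (y axis). Points are genes, red points were called at an adjusted p under 0.05, and bars are medians. The medians lie at -0.27 for BRQ+PD-1 against IgG2a, -0.21 for brequinar over both antibodies and -0.03 for PD-1 against IgG2a, and many comparisons share tumours.

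Members with known parts outside the ribosome were followed in every comparison. Rpl5, Rpl11 and Rpl23, which bind Mdm2, were at -0.24, -0.32 and -0.36 in BRQ+PD-1 against IgG2a (adjusted p = 0.129, 0.157 and 0.128). Of them Rpl23 was called with brequinar over both antibodies, at -0.32 (adjusted p = 0.0383). Rpl22, a protein with roles in T cell development, was at -0.19 (adjusted p = 0.33), and Rpl3, near the site of peptide bond formation, at -0.13 (adjusted p = 0.375).

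Among the small-subunit genes, Rps19 and Rps14, known from Diamond-Blackfan anaemia and from a form of myelodysplasia respectively, were at -0.26 and -0.10 (adjusted p = 0.318 and 0.614). The X-linked Rps4x was at -0.18 (adjusted p = 0.22). Rps27a, which is made as a fusion with ubiquitin, was at -0.29 (adjusted p = 0.0937) and was called with brequinar over both antibodies at -0.22 (adjusted p = 0.0428). Rpsa and Rpl13a were also called there, at -0.18 (adjusted p = 0.0412) and -0.32 (adjusted p = 0.0438). In PD-1 against IgG2a, the 14 genes followed in every comparison ranged from -0.09 for Rpl22 to 0.04 for Rps6.

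Much of the members' spread within a group was shared, and this common spread was widest in BRQ+PD-1. The median SD of log2 CPM among tumours of a group was 0.217 over the members, and 0.0976 after each tumour's mean over the members had been taken away. These pooled values include the 2 low libraries and were not worked out without them. Each tumour's mean over the members had an SD of 0.347 in BRQ+PD-1 (n = 6). Without the 2 low libraries that SD was 0.117 (n = 4). In IgG2a, PD-1 and BRQ+IgG2a it was 0.115, 0.102 and 0.118 (n = 6 each). All genes tested had a median SD of 0.279. The 1666 other genes with a mean log2 CPM over 7 had 0.189, and the 73 members over that limit had 0.211. Rps6, Rpl6 and Rplp0 varied least, at 0.102, 0.121 and 0.126, and for Rps6 the SD was 0.129 once the tumours' mean had been taken away. Rpl24, Rps10 and Rpl36 varied most, at 0.447, 0.395 and 0.371, the first 2 of them with few counts.

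The balance of the subunits moved little. The ratio of summed large-subunit to small-subunit counts was 1.55 ± 0.0387 in BRQ+PD-1 tumours and 1.51 ± 0.0357 in BRQ+IgG2a tumours (SD, n = 6 each). Without brequinar it was 1.51 ± 0.0301 with anti-PD-1 and 1.51 ± 0.0227 with the control antibody (SD, n = 6 each). Without the 2 low libraries the ratio in BRQ+PD-1 was 1.54 ± 0.0230 (SD, n = 4). These differences are of the size of the SDs and were not tested.

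Rows named as pseudogenes of these genes, copies in the genome that take reads like those of their parents, held few counts. Only rows with a member's symbol followed by -ps were searched, so copies under other names are not in these values. Per 100 counts of members, the pseudogene rows held 0.435 ± 0.0828 counts in BRQ+PD-1 tumours, 0.39 ± 0.023 in BRQ+IgG2a tumours, 0.354 ± 0.0214 in PD-1 tumours and 0.344 ± 0.0159 in IgG2a tumours (SD, n = 6 each). The highest were BRQ+PD-1 replicates 5 and 1, at 0.584 and 0.481. Rps10 was the exception, since its pseudogene rows held 122.9% as many counts as the gene itself, and for Rpl38 they held 5.33%. How the authors' counting shared reads between a parent and its copies is not given in the sources used here.

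Of ribosomal protein genes and paralogs outside the rule, 9 of 12 were tested, with a median of -0.20 in BRQ+PD-1 against IgG2a. Fau, which carries a 40S protein fused to a ubiquitin-like part, was at -0.33 (adjusted p = 0.208) and Rps3a1 at -0.10 (adjusted p = 0.482). With brequinar over both antibodies, the paralogs Rpl7l1 and Rps27l fell by 0.20 and 0.34 on the log2 scale (adjusted p = 0.00515 and 0.0141), and no other gene of this list passed. In that comparison 5.57% of all genes were called lower.

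Translation factors and host genes whose transcripts also begin with a TOP tract numbered 22, all tested. In BRQ+PD-1 against IgG2a, 3 were called lower, against the same 1.43% of all genes: Eef1b2, an exchange factor for elongation, at -0.33 ± 0.09 (adjusted p = 0.049), Naca, which shields nascent peptides, at -0.34 ± 0.08 (adjusted p = 0.0244) and Snhg1, a host gene of small nucleolar RNAs, at -0.53 ± 0.13 (adjusted p = 0.0237). Their median was -0.17. Eef1a1, the most abundant elongation factor gene, was at 0.04. With brequinar over both antibodies 4 were called lower, against 5.57% of all genes.

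Regulators of mTORC1 signalling (14 genes) had 2 called lower with brequinar over both antibodies, against 5.57% of all genes. They were Akt1s1 at -0.20 (adjusted p = 0.045) and Eif4ebp1, a repressor of cap-dependent translation, at -0.43 (adjusted p = 0.0136). Among 13 tested genes for the chaperones and importers of ribosomal proteins, Grwd1, which escorts Rpl3, was lower with brequinar over both antibodies at -0.31 (adjusted p = 0.0194) and in BRQ+PD-1 against PD-1 at -0.51 (adjusted p = 0.0188). Only Grwd1 of this list was called in these comparisons, against 5.57 and 2.66% of all genes called lower.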

How the data were processed

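RNA of 24 tumours was sequenced, 1 library each. RNeasy purification, a TapeStation check and library preparation at Novogene are described per the labels' protocols. HISAT2 2.2.1, StringTie 2.2.1, Trim Galore 0.6.7, MultiQC 1.11 and FastQC 0.11.8 are named, with build GRCm39, per the submitters' processing notes. For the counting program, annotation and strand setting, the choice is not given in the sources used here. Raw whole-number counts per gene, made by the authors without normalization, fill the deposited table, and all values here come from them.

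Symbols, lengths and exon overlaps came from GENCODE M21 by gene identifier, and no coordinates were carried between builds. Rows with no symbol took 0.26 to 0.55% of counts and entered the fit. Counts were tested with edgeR 4.0.16 in R 4.3.3: TMM factors, filterByExpr by group, a quasi-likelihood F test with robust dispersion on 24 libraries (20 residual degrees of freedom), and Benjamini-Hochberg adjustment over the 16029 genes tested. Genes called had an adjusted p under 0.05. Each SE is the absolute log2 fold change over the root of its F. Log2 CPM used a prior count of 2.

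Whether tumours of a group came from separate mice is not stated in the labels used here, and p-values measure the spread between these tumours. In the 60 pairs of replicates the mean squared difference was 9.12 to 208 times that of sampling noise, and each replicate counted as its own sample. In a test on simulated data for BRQ+PD-1 against IgG2a, run on 15869 genes, 45% of 100 genes changed 1.5-fold and 75% of 100 changed 2-fold were called, with 4 false among 124 calls. Each simulated gene was drawn on its own. The test therefore does not cover shifts that many members share within a library.

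The members, lists and comparisons were chosen with earlier results of these data known. Named members were those called (or the 10 lowest in p), the 3 largest changes each way, 14 set genes, and the extremes in level per kilobase and in spread. Some genes that these rules name are not reported here. Alternatives were DESeq2 1.42.0, limma 3.58.1 voom, other scaling factors, no filter, a replicate block, fits of 2 groups, each library left out, and fits without muscle-rich libraries. After seeing the data, fits without BRQ+PD-1 replicates 1 and 2 and with length or GC trends removed (lowess span 0.3) were added.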

Additional observations from a re-analysis of the deposited data

Results flagged for a closer look

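Within each group of 6 tumours, the highest and lowest tumour were compared with the rest for each named member and for the members' summed share. Of 152 groups tested, 5 held a tumour set apart by a gap that is large for the group's range, and chance alone flags about 1 in 20. Rps10 was at 4.769 CPM in IgG2a replicate 2, with the next tumour at 3.798 CPM. In PD-1 replicate 6 it was at 6.146 CPM, with the next at 4.116 CPM, and both are muscle-rich libraries and Rps10 has few counts. Rpl23a was at 564.8 CPM in PD-1 replicate 4, with the next at 477.5 CPM. Rpl24 was at 1.777 CPM in BRQ+IgG2a replicate 5, with the next at 1.146 CPM. The members' summed share was 3.919% of counts in BRQ+IgG2a replicate 4, which is muscle-rich, and the next tumour was at 4.51%.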

How the results depend on the processing

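The number of members called moved with the setting, while the fitted direction of the named members mostly did not. Under all alternatives, 3598 of their values kept direction and side of the threshold. Of the others, 269 no longer passed it, 43 came to pass it and 52 changed sign. The total includes comparisons with no called member, where no call could be lost. All 269 losses lay elsewhere: 72 of 851 values in BRQ+PD-1 against IgG2a, 77 of 888 against PD-1 and 120 of 972 with brequinar over both antibodies. Those values include named members that were not called. The 257 recomputed medians and 36 shares moved by less than 1 SD between tumours, although without BRQ+PD-1 replicates 1 and 2 the median went from -0.27 to -0.09 in BRQ+PD-1 against IgG2a and from -0.13 to 0.03 against BRQ+IgG2a. With limma voom, which gave each library a quality weight, these medians were -0.125 and -0.016. Under the same setting the median went from -0.268 to -0.152 in BRQ+PD-1 against PD-1. For brequinar over both antibodies it went from -0.208 to -0.141.

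In the order BRQ+PD-1 against IgG2a, BRQ+PD-1 against PD-1 and brequinar over both antibodies, DESeq2 called 23, 16 and 32 members lower, against 5.16, 4.8 and 7.89% of all genes. In the same order limma voom called 8, 13 and 29, against 3.29, 7.09 and 11%. Removing the GC and length trends gave 14, 23 and 33, against 1.95, 3.82 and 7.46%. Leaving out the muscle-rich libraries gave 3, 3 and 7, against 0.457, 1.46 and 3.62%. Fits of the 2 groups alone gave 3 and 2 for the first 2 comparisons (0.633 and 1.26% of all genes). Leaving out BRQ+PD-1 replicates 1 and 2 gave 3 and 2 (0.374 and 1.73%), and removing the length trend gave 16 and 17 (1.52 and 3.35%). For BRQ+IgG2a against IgG2a, DESeq2 and the fit of 2 groups called 1 each (1.17 and 0.303% of all genes). There limma voom called 2 (4.78%) and the fit without the 2 low libraries 2 (0.815%). The fits with the length trend and with GC and length trends removed called 2 and 3 (0.661 and 0.724%). For BRQ+PD-1 against BRQ+IgG2a, DESeq2 and limma voom called 1 each (0.00624 and 1.09% of all genes). Leaving out 1 library gave 0 to 1 for BRQ+IgG2a against IgG2a (1 without BRQ+IgG2a replicate 5, against 2.25% of all genes). It gave 5 to 22 for BRQ+PD-1 against IgG2a, with 5 without BRQ+PD-1 replicate 1 (0.7% of all genes) and 22 without replicate 5 (1.83%). For BRQ+PD-1 against PD-1 it gave 4 to 14, with 4 without BRQ+PD-1 replicate 1 (1.89%) and 14 without replicate 5 (2.16%). The cause was not tested.

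Tumours of different groups with the same replicate number were on average no more alike than others. The correlation of their deviations averaged -0.057 over 36 pairs (range -0.64 to 0.444). Over 180 pairs with other numbers it averaged 0.022 (range -0.71 to 0.806). These averages cannot show whether the numbers stand for a pairing or a batch. With the replicate block, 4 members were called in BRQ+PD-1 against PD-1 (1.29% of all genes) and 13 with brequinar over both antibodies (3.85%), and Rpl3 was at 0.001 in BRQ+IgG2a against IgG2a.

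The values that changed sign follow. In BRQ+IgG2a against IgG2a, Rpl3 was at 0.009 with upper quartile factors, 0.018 without the length trend and 0.013 without GC and length trends. Rps14 was at 0.015 with voom, 0.011 without muscle-rich libraries and 0.004 without GC and length trends. In BRQ+PD-1 against IgG2a, with voom, without the 2 low libraries, without the length trend and without GC and length trends, Rpl24 was at 0.078, 0.173, 0.053 and 0.045 and Rpl23a at 0.127, 0.218, 0.021 and 0.01. With voom and without the 2 low libraries, Rps14 was at 0.055 and 0.072 there, and against PD-1 Rps14 was at 0.055 and 0.107 and Rpl7 at 0.004 and 0.028. With brequinar over both antibodies, Rps14 was at 0.035 and 0.032 under those 2 settings and at 0.0 without GC and length trends. Without muscle-rich libraries, Rpl24 was at -0.058 in BRQ+PD-1 against BRQ+IgG2a and Rpl34 at -0.008 in the interaction. Leaving out 1 library gave -0.042 to 0.044 for Rpl3 and -0.074 to 0.003 for Rps14 in BRQ+IgG2a against IgG2a, and -0.034 to 0.215 for Rps10 in PD-1 against IgG2a. It gave -0.118 to 0.194 for Rpl24 and -0.121 to 0.088 for Rpl23a in BRQ+PD-1 against IgG2a, and -0.134 to 0.017 for Rps14 against PD-1. It gave -0.047 to 0.28 for Rps10 and -0.079 to 0.185 for Rpl24 in BRQ+PD-1 against BRQ+IgG2a, and -0.022 to 0.165 for Rpl34 in the interaction.

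Depth limits Rpl24, with as few as 11 counts in a library, and Rps10. Members with shared exons or pseudogenes may gain or lose reads in counting. With whole tumours, a change in cell mixture and in RNA per cell cannot be told apart.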
